A study of Mus musculus with 18 samples.

Results

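Unstimulated dendritic cells lacking Ubc9 were compared with wild-type dendritic cells after 6 h of bacterial lipopolysaccharide (LPS), to see which of the genes that LPS moves in the wild type were already moved in the knockout before any LPS. It called 1783 genes (8.94% of those tested), 996 higher and 787 lower in the knockout. The comparison took the 3 arrays of unstimulated knockout cells and the 3 arrays of wild-type cells at 6 h LPS, which are 6 of the 18 arrays of the study. The 3 arrays of unstimulated wild-type cells served as the baseline that defines the wild-type LPS programme. Expression of 19938 mouse genes, 1313 of them predicted or unnamed, was read as log2 signal on Affymetrix Mouse Gene ST 1.0 arrays.

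Bone marrow of Ubc9 wild-type or Ubc9 knockout genotype was cultured for 10 days with 20 ng/ml GM-CSF, a cytokine that drives marrow precursors towards dendritic cells. Per the labels, every culture of both genotypes received 100 nM 4-hydroxytamoxifen on day 6, and LPS was given at 10 ng/ml for 1 h or 6 h. The sources used here do not name the driver of the deletion or the strain, age and sex of the mice. The series design calls the 3 arrays of a group biological replicates. Genotype and LPS differ together between the 2 groups, so their separate effects cannot be told apart in this comparison, and the contrast describes 2 states of the cells.

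Ubc9 is the E2 enzyme that transfers the small protein SUMO onto other proteins, among them many transcription factors and chromatin proteins. LPS binds Toll-like receptor 4 and starts 2 arms of transcription in dendritic cells. An early arm runs through NF-kB and MAP kinases to cytokines, chemokines and the inhibitors that end the response, and a later arm runs through IRF3, interferon-beta and IRF9 to the interferon-stimulated genes. The genes of the 2 arms carry different short elements in their promoters, the interferon-stimulated response element and the kB site.

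The wild-type LPS programme held 844 genes called higher at 6 h than without LPS (risers, 4.23% of the genes tested) and 770 called lower (fallers, 3.86%), where called means an adjusted p under 0.05 in limma, 1614 in all (8.10%). With the replicate number within genotype as a fixed block, 3002 programme genes were called in place of 1614. The need for that block was not tested. Of the risers, 265 rose by at least 2-fold, and 94 of the fallers fell by at least 2-fold. These 2-fold genes are used below unless stated, since most of the other risers and fallers moved by less than the margin of 1 log2 unit that was used to call a match.

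The 265 risers of at least 2-fold fell into 5 classes. In the unstimulated knockout, 12 genes (4.53%) were called above the 6 h wild type. A further 34 genes (12.8%) matched it, meaning that the difference was not called and its 95% interval lay within 1 log2 unit either way. For 158 genes (59.6%) the unstimulated knockout was called below the 6 h wild type and not called higher than the unstimulated wild type, and these are described as lacking. For 5 genes (1.89%) it was called below the 6 h wild type and above the unstimulated wild type, a partial rise. The other 56 genes (21.1%) could not be placed. Over all genes tested, 5.0% were called higher and 3.95% lower in the unstimulated knockout than in the 6 h wild type, and 87.4% met the rule for a match, so a match of a single gene is common and is read here only for genes that LPS raised at least 2-fold. The 6 h wild-type arrays both define the programme and enter the comparison, which favours lower knockout values among risers, and the classes are a description with no test of their own.

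**Figure D1:**
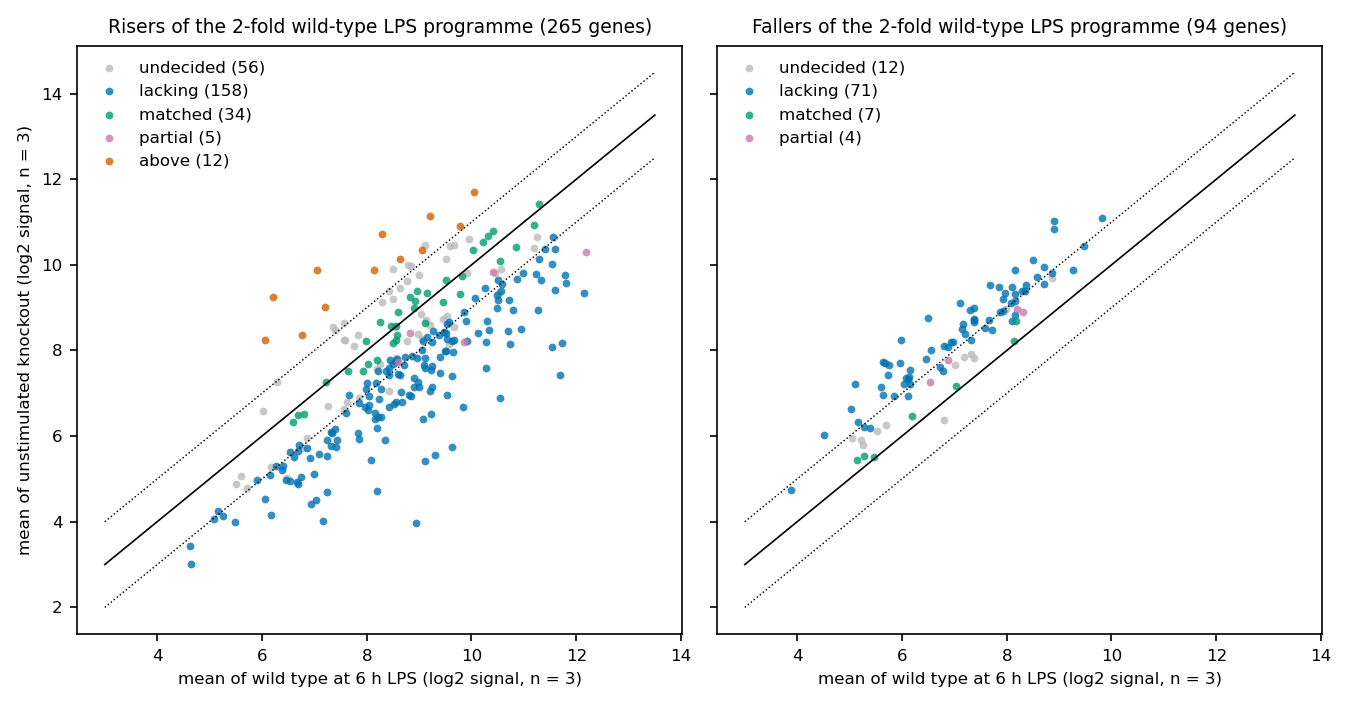
Mean log2 signal of wild-type cells at 6 h LPS (horizontal axis) against that of unstimulated knockout cells (vertical axis) for the 265 risers (left) and the 94 fallers (right) of at least 2-fold, coloured by class. The solid line marks equal means and the dotted lines a difference of 1 log2 unit; the 158 lacking risers lie below the solid line, and the 12 genes called above the 6 h wild type lie above it together with 17 matched and 24 undecided genes.

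The 12 genes above the 6 h wild type were all interferon-stimulated genes, and their median excess was 1.78 log2 units over a median wild-type rise of 1.91. They include Ifit3 and Ifit3b of the IFIT family and the transcription factor Irf7. Also in the class are the RNA-activated 2'-5' oligoadenylate synthetases Oas1a, Oas2 and Oas3 with their relative Oasl2. The DNA and RNA sensor Zbp1, the membrane protein Ifitm3 and the GTPase Gbp4 belong to it too. Rtp4 and Ddx60 complete the class. Oas1a, Oas2 and Zbp1 were named after their values were seen. Leaving out 1 array at a time gave between 6 and 21 such genes. There were 21 without knockout array 1, 7 without knockout array 3 and 6 without 6 h wild-type array 2.

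Promoter windows show what the genes of this class and of the lacking class hold near their starts. RefSeq promoters of the mouse assembly GRCm38.p6, 250 bases before to 50 after each annotated start, were searched on both strands for GAAA, any 2 bases and GAAA again (TTTC, 2 bases and TTTC on the other strand), the core of the interferon-stimulated response element. They were also searched for a kB-like motif, GGGA, any 2 bases and TTCC (GGAA, 2 bases and TCCC on the other strand). Overlapping matches were counted once per promoter. The first motif stood in 1131 of all 32851 promoters (3.44%) and the second in 482 (1.47%). Of the 8 promoters found for the 12 genes above the 6 h wild type, 6 (75%) held the first motif and 1 (12.5%) the second. The windows around the matches of Ifit3 and Ifit3b have the same letters, so these promoters are not independent examples. The 34 promoters of the matched genes held the first motif in 11 (32.4%) and the second in 0. The 51 promoters of the risers that could not be placed held the first motif in 12 (23.5%) and the second in 4 (7.84%). The 163 promoters of the lacking genes held the first motif in 5 (3.07%) and the second in 8 (4.91%). A gene can have several promoters in the table. A match of letters is a description and not a measured binding site. The following windows, with the motif in capitals, belong to Ifit3 (chr19:34583363-34583392, plus strand, the first of its 2 matches), Oas3 (chr5:120777715-120777744, minus strand), Ifitm3 (chr7:141010706-141010735, minus strand) and Ddx60 (chr8:61928058-61928087, plus strand), all above the 6 h wild type, and to Gbp3 (chr3:142559989-142560018, plus strand), Ifih1 (chr2:62646206-62646233, minus strand) and Eif2ak2 (chr17:78882535-78882564, minus strand), all matched.
Ifit3: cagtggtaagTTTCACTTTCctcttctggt
Oas3: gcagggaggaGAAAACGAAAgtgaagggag
Ifitm3: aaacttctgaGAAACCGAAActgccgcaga
Ddx60: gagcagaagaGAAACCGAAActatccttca
Gbp3: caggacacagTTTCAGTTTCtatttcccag
Ifih1: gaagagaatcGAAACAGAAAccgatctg
Eif2ak2: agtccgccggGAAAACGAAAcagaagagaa

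The kB-like motif is shown for 3 genes of the lacking class, Il6 (chr5:30013060-30013089), Cxcl2 (chr5:90903792-90903821) and Cxcl3 (chr5:90786018-90786047), all on the plus strand. With predicted or unnamed genes set aside, they are among the 10 called genes with groups apart that lay furthest below the 6 h wild type in the unstimulated knockout. Apol7c, also among these 10, held the interferon-stimulated motif and no kB-like match. No match to either motif was found for the rest of the 10, Rab38, Il12b, Ptgs2, Il1b, Lcn2 and Ereg. A gene without an annotated promoter could show no match, so the motif does not mark the largest gaps as a set.
Il6: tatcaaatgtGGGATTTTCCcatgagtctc
Cxcl2: cctgagctcaGGGAATTTCCctggtccccg
Cxcl3: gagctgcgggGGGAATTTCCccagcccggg

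In the lists of antiviral effectors, ISG15 enzymes, interferon-inducible GTPases and interferon-linked PARP genes, members were called higher in the unstimulated knockout than in the 6 h wild type or were not called. Of 40 measured antiviral effectors, 17 were called higher and 0 lower, against 5.0% and 3.95% of all genes, and the list's median difference was 0.98 against 0.01 for all genes. Against the unstimulated wild type, 31 of the 40 were called higher in the unstimulated knockout (1.80% of all genes) and 24 at 6 h LPS in the wild type, 2 comparisons that share the baseline arrays. The mean of the list was 8.95, 9.40 and 10.21 in knockout arrays 1, 2 and 3, against 7.85, 8.51 and 8.77 in the 6 h wild-type arrays and 6.69 to 6.90 in the unstimulated wild type. All 3 knockout arrays lay above all 3 of the 6 h wild type. The count of effectors called higher was 9 without knockout array 3 and 10 without 6 h wild-type array 1.

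Ifit3 read 10.58, 11.10 and 11.73 in the knockout arrays and 8.14, 9.53 and 9.94 in the 6 h wild-type arrays, against a mean of 4.44 in the unstimulated wild type. The groups did not overlap, and the difference was 1.93 ± 0.43 log2 units (SE, n = 3 arrays per group here and below; limma, adjusted p = 0.0074). Irf7, the transcription factor that amplifies type I interferon production, read 9.89, 10.73 and 11.51 in the knockout and 7.64, 8.57 and 8.70 in the 6 h wild type, with the groups apart. Its difference was 2.40 ± 0.39 (limma, adjusted p = 0.00071). Both genes kept their call when any 1 of the 9 arrays was left out. Of the 996 genes called higher, 991 had groups that did not overlap, and so did 781 of the 787 called lower. A lack of overlap therefore adds little to a call.

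Oas3 makes the second messenger that switches on RNase L. Its 3 knockout values were 9.37, 9.82 and 10.41, its 6 h wild-type values 6.58, 7.12 and 7.44, and its unstimulated wild-type mean 5.93. The difference from the 6 h wild type was 2.82 ± 0.31 (limma, adjusted p = 2.1e-05), with no overlap. Oasl2 read 9.26, 9.79 and 10.56 in the knockout and 7.15, 8.29 and 8.96 in the 6 h wild type, a difference of 1.74 ± 0.40 (limma, adjusted p = 0.0094) whose adjusted p was 0.052 without knockout array 3. Ifitm3, which restricts viral entry at membranes, differed by 1.68 ± 0.26 and Ifit3b by 3.02 ± 0.58, both with the groups apart. Rtp4, a transmembrane protein induced by interferon, differed by 1.11 ± 0.33 with an adjusted p of 0.047 in limma, and that call was lost in 6 of the 9 analyses that left out 1 array. The call of Ddx60, an RNA helicase-like protein, was lost in 7 of the 9.

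Genes in this family that were not called in the wild-type programme, which was fitted without a replicate block, were also high in the knockout. Slfn1 read 8.79, 9.69 and 11.17 in the knockout, 5.88, 6.32 and 6.74 in the 6 h wild type and 4.57 to 5.78 without LPS, a difference of 3.57 ± 0.60 from the 6 h wild type (limma, adjusted p = 0.00089). Ifi27l2a read 11.48, 11.67 and 11.96 in the knockout, and 9.77, 9.69 and 10.17 in the 6 h wild type, whose mean did not differ from the unstimulated wild type beyond the spread (-0.01 ± 0.16). The knockout was 1.83 ± 0.16 higher (limma, adjusted p = 2.8e-06). Bst2 (tetherin), which holds budding virus at the cell surface and also marks plasmacytoid dendritic cells, was 1.59 ± 0.20 higher (adjusted p = 8.8e-05 in limma). The other plasmacytoid markers measured did not pass the test. In the wild type at 6 h, Slfn1 and Bst2 rose by 1.18 ± 0.60 and 0.64 ± 0.20 without a call (adjusted p = 0.32 and 0.072 in limma). Slfn4 was 3.50 ± 0.94 higher, but its values ran from 6.33 to 10.65 in the knockout and its call was lost in 4 of the 9 leave-out analyses, with a difference of 2.25 without knockout array 3.

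Among the enzymes that attach the interferon-induced modifier ISG15, the E1 enzyme Uba7 was 1.13 ± 0.26 higher and the E2 enzyme Ube2l6 was 1.67 ± 0.29 higher in the unstimulated knockout (limma, adjusted p = 0.010 and 0.0013). In the wild type at 6 h, Uba7 and Ube2l6 rose by 0.21 ± 0.26 and 0.71 ± 0.29. Neither rise was called in the fit without a replicate block (adjusted p = 0.80 and 0.19 in limma). The 6 h values of Ube2l6, 8.04 to 8.58, all lay above its unstimulated values of 7.37 to 7.77. Usp18, which removes ISG15 and restrains the interferon receptor, and the ligase Herc6 rose in the wild type by 2.78 and 1.46. Their knockout differences of 1.13 ± 0.44 and 0.84 ± 0.33 did not pass the test. Of 8 measured interferon-inducible GTPases, which attack vacuoles of intracellular pathogens, Gbp4, Gbp8 and Gbp9 were called higher and 0 lower. The call of Gbp4 (2.18) was lost without knockout array 3 or without 6 h wild-type array 1, with adjusted p of 0.064 and 0.061 in limma. Gbp5 differed by -1.14 ± 0.43 without a call (adjusted p = 0.13 in limma), and it was called lower without knockout array 3 (-1.68, adjusted p = 0.012 in limma) and with array weights (-1.41). Gbp9 read 8.47, 9.08 and 9.79 in the knockout and 5.90, 6.17 and 6.55 in the 6 h wild type, a gap of 2.91 ± 0.40 (limma, adjusted p = 0.00015), and it was not called in the wild-type programme.

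**Figure D2:**
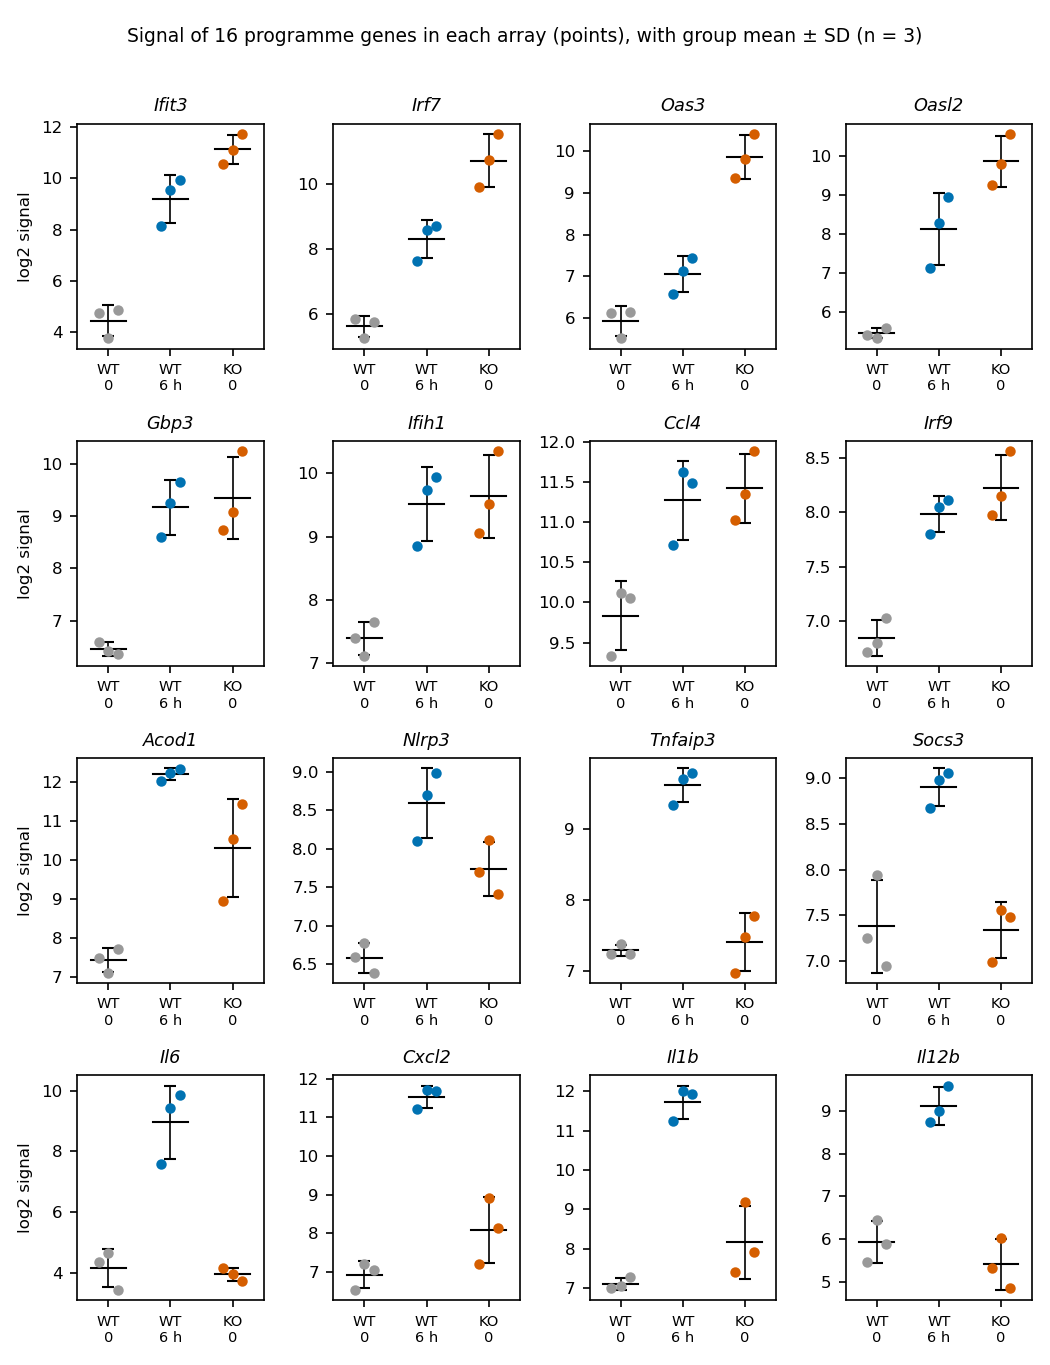
Log2 signal of 16 genes in unstimulated wild type (WT 0, grey), wild type at 6 h LPS (WT 6 h, blue) and unstimulated knockout (KO 0, orange); points are the 3 arrays, bars the mean and SD, and each panel has its own vertical axis. The top row holds 4 genes above the 6 h wild type, the next row 4 matched genes, the third row 2 partial and 2 lacking genes, and the bottom row 4 lacking genes whose knockout arrays all lie below the 6 h wild type.

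The 34 matched genes had a median difference of -0.03 between the unstimulated knockout and the 6 h wild type, after a median wild-type rise of 1.31. Of them, 27 were called higher in the unstimulated knockout than in the unstimulated wild type, against 1.80% of all genes. The rule for the class largely builds this in, since it joins a 2-fold wild-type rise with a small knockout difference, so the count is no separate evidence. Gbp3, a GTPase, read 8.74, 9.08 and 10.24 in the knockout and 8.60, 9.25 and 9.65 in the 6 h wild type, from a mean of 6.46 without LPS. The groups overlapped, with a difference of 0.19 and an interval of -0.56 to 0.94. Ifih1 (MDA5), the sensor of long double-stranded RNA, read 9.05, 9.52 and 10.35 against 8.85, 9.74 and 9.95, a difference of 0.12 with an interval of -0.59 to 0.84. In both genes knockout array 1 lay inside the range of the 6 h wild type and knockout array 3 above it.

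Of 7 measured genes of the interferon-linked PARP group, which modify proteins with ADP-ribose or act with those that do, Dtx3l, Parp9 and Parp14 were matched and 0 of the 7 were called higher or lower. Parp12 was closest to a call, at 0.83 ± 0.25 with the groups apart (adjusted p = 0.051 in limma). It was called higher without knockout array 1 (1.07) or without 6 h wild-type array 3 (0.98), and under 4 other alternatives. Parp14, a mono-ADP-ribosyltransferase, rose by 2.17 in the wild type and differed by -0.07 (-0.77 to 0.64) in the knockout. Parp9 and its partner Dtx3l differed by 0.23 and 0.44. Eif2ak2 (PKR), which stops translation when it meets double-stranded RNA, differed by 0.41 (-0.12 to 0.94), and Trim21, an intracellular antibody receptor, by 0.40 (-0.12 to 0.92). Irf9, the DNA-binding part of the interferon-stimulated complex, read 7.97, 8.15 and 8.56 in the knockout and 7.80, 8.05 and 8.11 in the 6 h wild type, a difference of 0.24 (-0.06 to 0.55). Leaving out 6 h wild-type array 2 or 3 reduced the matched class to 16 or 17 genes.

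The matched class also held a chemokine and a co-stimulator. Ccl4, an inflammatory chemokine, rose by 1.44 in the wild type. It read 11.03, 11.35 and 11.88 in the knockout and 10.71, 11.62 and 11.49 in the 6 h wild type, a difference of 0.14 (-0.45 to 0.74). Tnfsf4 (OX40 ligand), a co-stimulator of T cells, rose by 1.51 and differed by -0.26 (-0.95 to 0.43) in the knockout, although it was not called there against the unstimulated wild type (adjusted p = 0.055 in limma). Of the list of interferon production and signalling, the kinase Ikbke, which phosphorylates IRF3 and IRF7, rose by 1.36 and differed by -0.43 (-0.88 to 0.02).

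Few upstream parts of the interferon arm were called. Of 23 measured genes of interferon production and signalling, 2 were called higher and 3 lower, against 5.0% and 3.95% of all genes. The list's median difference was 0.03, and the higher count ran from 1 to 4 when 1 array was left out. Counts this small are not read as a result about the list. Ifnb1, which encodes interferon-beta, read 4.35, 5.48 and 6.56 in the knockout, 4.26, 4.56 and 4.63 in the 6 h wild type and 3.36 to 3.80 in the unstimulated wild type. The knockout and 6 h wild-type values overlapped and their difference of 0.98 ± 0.40 did not pass the test (adjusted p = 0.17 in limma). The interval ran from 0.13 to 1.83. Knockout arrays 2 and 3 lay above the low-signal level of 5.3, which was set from genes of the germline, and the other arrays of the 3 groups below it. Against the unstimulated wild type the knockout was called higher by 1.81 (adjusted p = 0.021 in limma). Stat2 was 0.95 ± 0.33 higher without passing the test (adjusted p = 0.096 in limma). Irf3, which is active without new synthesis, differed by 0.14 (-0.10 to 0.39).

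The cytokine signalling genes Jak2 and Socs3 were lacking in the knockout. Jak2, a kinase of the receptors for GM-CSF and interferon-gamma, read 8.57, 8.68 and 8.84 in the knockout and 10.39, 10.24 and 10.23 in the 6 h wild type, which had risen from a mean of 8.77. The difference was -1.59 ± 0.15 (limma, adjusted p = 3.4e-06). Socs3, the inhibitor of the IL-6 receptor, differed by -1.56 ± 0.22 (limma, adjusted p = 0.00024), and its difference from the unstimulated wild type was -0.04.

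The class of 158 lacking genes had a median wild-type rise of 1.42, a median difference of -1.49 from the 6 h wild type and a median difference of 0.11 from the unstimulated wild type. For 130 of them the interval of the difference from the unstimulated wild type lay within 1 log2 unit either way. For the others the interval reached beyond 1 log2 unit, and 2 were called lower than the unstimulated wild type. The count ran from 137 to 169 when 1 array was left out.

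Secreted cytokines were among the largest gaps. Of 29 measured cytokines and growth factors, 8 were called lower and 0 higher, all 8 of them lacking, and the counts were the same in each of the 9 leave-out analyses. Il6 read 4.16, 3.97 and 3.74 in the knockout and 7.57, 9.43 and 9.85 in the 6 h wild type, from 3.45 to 4.66 without LPS. The knockout values lay within the unstimulated wild-type range. The difference from the 6 h wild type was -4.99 ± 0.50 (limma, adjusted p = 8.1e-06). The knockout values lay near the mean of germline genes in the same arrays (3.68 to 3.86), which were taken as not expressed, so whether Il6 was above background there is unknown and the size of the difference is uncertain. Il12b, the p40 subunit shared by IL-12 and IL-23, read 5.34, 6.04 and 4.86 in the knockout and 8.74, 9.0 and 9.59 at 6 h, a difference of -3.70 ± 0.37. Il1b read 7.40, 9.19 and 7.91 in the knockout, 11.24, 12.00 and 11.93 at 6 h and 7.0 to 7.29 without LPS, a difference of -3.56 ± 0.35. All 3 knockout arrays were above the unstimulated wild type, but that difference of 1.05 was not called (adjusted p = 0.16 in limma). Tnf, Il1a and the TNF family ligand Tnfsf15 were lower by -2.22 ± 0.21, -2.02 ± 0.17 and -2.68 ± 0.28. Il1rn, the natural antagonist of IL-1, rose by 0.68 in the wild type, less than 2-fold, so its difference of 0.03 (-0.32 to 0.37) is not read as a match.

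Chemokines fell on both sides. Of 24 measured, 9 were called lower and 3 higher. Cxcl2 and Cxcl3, which attract neutrophils, were lower by -3.45 ± 0.30 and -4.26 ± 0.47. Cxcl2 read 7.22, 8.91 and 8.14 in the knockout and 11.21, 11.72 and 11.69 at 6 h, and Cxcl3 read 6.44, 8.26 and 7.60 against 11.11, 12.04 and 11.93, with no overlap for either. Ccl5, which attracts T cells, was -1.53 ± 0.32 lower and Cxcl16 -1.18 ± 0.26.

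Ccl2 and Ccl7, which attract monocytes through CCR2, went the other way. Ccl7 read 8.98, 9.28 and 11.67 in the knockout, 6.20, 6.39 and 7.03 in the 6 h wild type and 6.06 to 7.53 in the unstimulated wild type. Its difference of 3.44 ± 0.64 from the 6 h wild type was called (limma, adjusted p = 0.0021), and it was not called in the wild-type programme (-0.33 ± 0.64). Ccl2 was 2.43 ± 0.39 higher (limma, adjusted p = 0.00070). Cxcl10, the CXCR3 ligand that interferon induces, was 4.43 above the unstimulated wild type in the knockout and 5.61 above it at 6 h LPS. Its knockout values of 7.67, 9.69 and 10.71 overlapped the 6 h values of 9.67, 10.76 and 11.15, and the gap of -1.17 ± 0.58 was not called (adjusted p = 0.29 in limma).

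The chemokines Ccl17 and Ccl22, which attract CCR4-bearing T cells and are made by mature dendritic cells, were lower than the 6 h wild type by -1.91 ± 0.22 and -2.33 ± 0.33. Ccl17 read 10.40, 10.76 and 10.25 in the knockout, 12.26, 12.39 and 12.47 at 6 h, and 11.46, 11.38 and 12.00 in the unstimulated wild type. The knockout was therefore below both wild-type groups, and its difference of -1.14 from the unstimulated wild type was called (adjusted p = 0.0078 in limma).

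**Figure D3:**
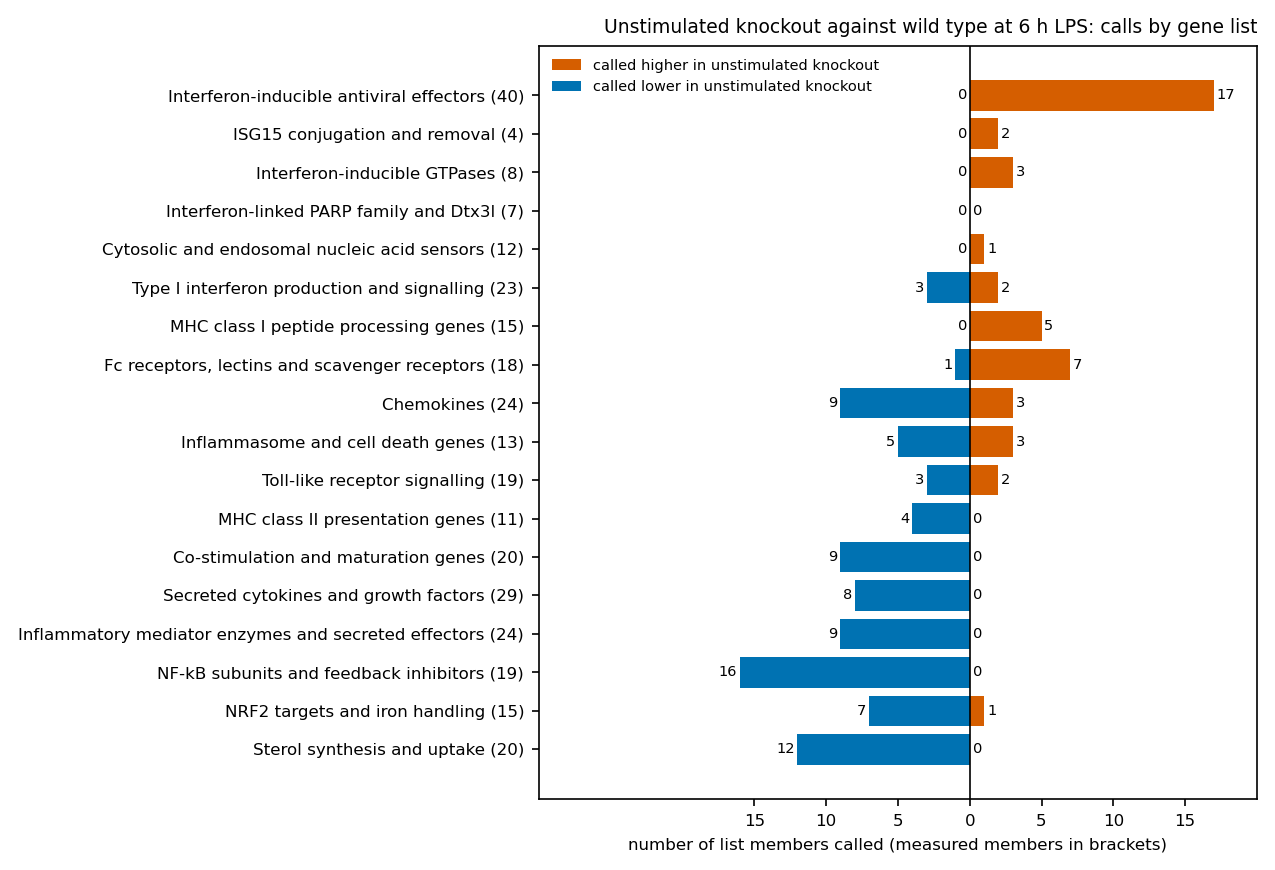
Number of members of 18 gene lists called higher (orange, to the right) or lower (blue, to the left) in unstimulated knockout cells than in wild-type cells at 6 h LPS, at an adjusted p under 0.05 in limma, with the number of measured members in brackets. Antiviral effectors have 17 calls higher and 0 lower, and NF-kB subunits and inhibitors have 0 higher and 16 lower.

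The NF-kB list had the largest share of its members called among the 42 lists. Of 19 measured subunits and feedback inhibitors, 16 were called lower, 0 higher, and all 16 were lacking. The list's median difference was -1.12, its median wild-type rise 1.22 and its median difference from the unstimulated wild type -0.07. The list mean was 7.86, 8.21 and 8.22 in the knockout arrays, 9.19, 9.22 and 9.27 in the 6 h wild type and 8.04, 8.14 and 7.99 without LPS. Leaving out 1 array gave 15 to 17 calls. Tnfaip3 (A20), the ubiquitin-editing enzyme that shuts off the pathway, read 6.97, 7.47 and 7.77 in the knockout and 9.34, 9.71 and 9.79 at 6 h, a difference of -2.21 ± 0.21 (limma, adjusted p = 4.4e-06). The signalling adaptor Traf1 was lower by -2.44 ± 0.21, the inhibitor Nfkbie by -1.92 ± 0.21 and the A20-binding protein Tnip1 by -1.16 ± 0.08.

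Of 24 measured inflammatory mediators, 9 were called lower and 0 higher. Ptgs2 (COX-2), which makes prostaglandin precursors, read 7.26, 6.72 and 6.66 in the knockout and 9.80, 10.83 and 11.02 at 6 h, a difference of -3.67 ± 0.30 (limma, adjusted p = 1.2e-06). Ptges, the prostaglandin E synthase that acts after it, was lower by -1.74 ± 0.15 and the siderophore-binding protein Lcn2 by -3.48 ± 0.33. Acod1, which makes itaconate, was the clearest partial rise. It read 8.95, 10.54 and 11.43 in the knockout, 12.03, 12.23 and 12.32 at 6 h, and a mean of 7.44 without LPS, so that the knockout was -1.89 ± 0.41 below the one and 2.86 above the other, both called. The chemerin receptor Ccrl2 was the other partial rise that kept its call against the 6 h wild type in every leave-out analysis, at -1.66 ± 0.23. The calls of Nlrp3, Gch1 and Nupr1 against the 6 h wild type were lost in 4, 7 and 6 of the 9. The partial class also needs a call against the unstimulated wild type, and 2 to 4 of its 5 genes stayed partial with 1 array left out.

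Of 20 co-stimulation and maturation genes, 9 were called lower and 0 higher. The lower count was 13 with array weights or with the replicate number within genotype as a random block. It was 15 with a fixed replicate block across genotypes. Cd40, the receptor for T cell help, read 6.26, 6.38 and 6.93 in the knockout and 9.03, 8.97 and 9.65 at 6 h, a difference of -2.70 ± 0.30 (limma, adjusted p = 1.8e-05). The C-type lectin Clec4e (Mincle) was lower by -2.79 ± 0.19 and the adhesion molecule Icam1 by -1.53 ± 0.14. Cd80, Cd83, Cd86 and the lymph node homing receptor Ccr7 were not called, nor were they called in the wild type at 6 h, in the fit without a replicate block. Their 6 h wild-type values were highest in array 1, where Cd86 read 8.72 against 7.32 and 7.06. The list mean fell from array 1 in both wild-type groups, at 7.98, 7.59 and 7.26 without LPS and 9.12, 8.80 and 8.78 at 6 h. That fit counts such a spread as error, so the lack of a call does not show that these genes were unchanged.

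The genes called higher at 1 h of LPS in the wild type give an early programme drawn from arrays that stand in neither group, although its baseline arrays also define the 6 h programme. It held 51 genes (0.256% of those tested). In the comparison of unstimulated knockout with 6 h wild type, 38 of the 51 were lower, 0 higher and 13 not called, with a median difference of -1.13. Over all genes, 3.95% were called lower and 5.0% higher. Against the unstimulated wild type 6 of the 51 were called higher in the knockout (1.80% of all genes), and the median was 0.30. Of the 47 that were still risers of any size at 6 h, 35 were lacking, 3 partial and 5 matched.

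The 94 fallers of at least 2-fold were mostly not lowered in the unstimulated knockout. In 71 (75.5%) the knockout was above the 6 h wild type and was not called lower than the unstimulated wild type, 4 were partial, 7 matched, 12 could not be placed and 0 were called below the 6 h wild type. For 59 of the 71 the interval against the unstimulated wild type lay within 1 log2 unit either way. Dhrs3, a retinal reductase, read 10.90, 11.03 and 11.15 in the knockout, 9.16, 8.78 and 8.75 at 6 h and 10.80, 10.93 and 11.06 without LPS. The knockout was 2.13 ± 0.18 above the 6 h wild type (limma, adjusted p = 2.2e-06). Pdgfc, a growth factor, was 2.25 ± 0.23 higher and Abcd2, a peroxisomal fatty acid transporter, 2.27 ± 0.34. Cpt1a, which admits fatty acids to mitochondria, was 1.38 ± 0.08 higher and the cholesterol exporter Abcg1 1.29 ± 0.12.

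Some fallers were already low in the knockout. Scel (sciellin) read 6.86, 6.83 and 5.69 in the knockout, 6.60, 6.27 and 5.71 at 6 h and 7.98 to 8.17 without LPS, and Sox7, a transcription factor, differed by 0.05 (-0.71 to 0.81) from the 6 h wild type. Klf4, a transcription factor of myeloid cells, was partial, 0.90 ± 0.16 above the 6 h wild type and -0.65 below the unstimulated wild type. Pparg, the nuclear receptor of lipid handling in myeloid cells, fell by 0.98 in the wild type, less than 2-fold, and its difference of -0.08 (-0.53 to 0.36) is likewise not read as a match.

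Outside the programme, 565 of the 996 genes called higher and 290 of the 787 called lower were neither risers nor fallers. Of these, 179 of the higher and 44 of the lower were also called, in the same direction, against the unstimulated wild type. With predicted or unnamed genes set aside, the 10 largest positive differences among called genes with groups apart all lay outside the programme. Sema6a, a transmembrane semaphorin, read 9.85, 8.79 and 7.86 in the knockout and 4.56 to 4.93 across both wild-type groups, a difference of 4.18 ± 0.55 from the 6 h wild type (limma, adjusted p = 0.00011). Its wild-type values lay below the low-signal level of 5.3, so the size of that difference is uncertain. Colec12, a scavenger receptor with a collagen-like stalk, was 3.23 ± 0.60 higher, and Ttc28 3.08 ± 0.46. Ms4a6b, a membrane protein of the MS4A family, read 7.11, 8.43 and 10.32 in the knockout and 4.78, 5.10 and 5.45 at 6 h. Knockout array 3 was highest for Slfn1, Ms4a6b, Slfn4 and Ccl7, while array 1 was highest for Sema6a, Ttc28 and Ramp3.

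**Figure D4:**
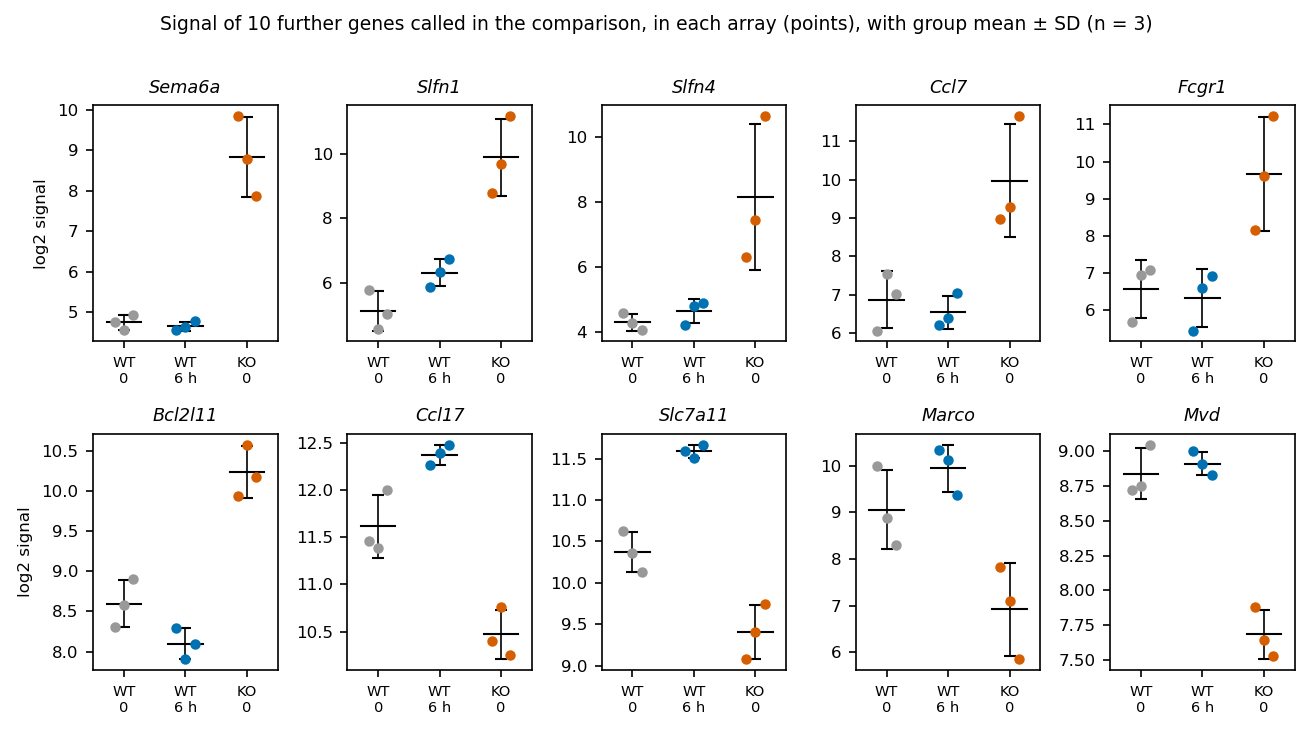
Log2 signal of 10 further genes called in the comparison, in unstimulated wild type (WT 0, grey), wild type at 6 h LPS (WT 6 h, blue) and unstimulated knockout (KO 0, orange); points are the 3 arrays and bars the mean and SD. Sema6a, Slfn1, Slfn4, Ccl7, Fcgr1 and Bcl2l11 lie above both wild-type groups in all 3 knockout arrays, and Ccl17, Slc7a11, Marco and Mvd lie below both.

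Of 20 measured genes of sterol synthesis and uptake, 12 were called lower in the knockout and 0 higher. In the wild type at 6 h, 0 of the 20 were risers and 2 were fallers, Dhcr7 (-1.14) and Ebp (-0.49), enzymes of late cholesterol synthesis that were not called in the knockout comparison. The list's median difference was -1.0 from the 6 h wild type and -0.85 from the unstimulated wild type, where 5 were called lower (0.642% of all genes). Mvd, which acts in the mevalonate pathway, read 7.88, 7.64 and 7.53 in the knockout, 9.0, 8.91 and 8.83 at 6 h and 8.72, 8.75 and 9.05 without LPS, a difference of -1.23 ± 0.13 (limma, adjusted p = 9.9e-06). Sqle, squalene epoxidase, was lower by -1.68 ± 0.35. The count of 12 was 5 without knockout array 2, 4 without knockout array 3, 6 without 6 h wild-type array 1 and 4 without 6 h wild-type array 2. The list mean was 8.25, 7.93 and 7.54 in knockout arrays 1, 2 and 3, all below the lowest wild-type array at 8.64.

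Of 15 measured antioxidant and iron genes, 7 were called lower and 1 higher. The cystine transporter Slc7a11 read 9.08, 9.40 and 9.74 in the knockout, 11.59, 11.51 and 11.67 at 6 h and 10.62, 10.36 and 10.13 without LPS, so that it lay below both wild-type groups. Its difference from the 6 h wild type was -2.18 ± 0.16 (limma, adjusted p = 5.1e-07) and from the unstimulated wild type -0.96 (adjusted p = 0.0026 in limma). Sod2, mitochondrial superoxide dismutase, was lower by -1.43 ± 0.13 and thioredoxin reductase Txnrd1 by -1.17 ± 0.11, and they differed from the unstimulated wild type by 0.11 and -0.24, neither called.

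Receptors and presentation genes were also unequal. Of 18 Fc receptors, lectins and scavenger receptors, 7 were called higher and 1 lower, with 4 higher without knockout array 3 or without 6 h wild-type array 1 or 2. Fcgr1 (CD64), the high-affinity receptor for IgG, read 8.15, 9.61 and 11.23 in the knockout and 5.46, 6.61 and 6.93 at 6 h, a difference of 3.33 ± 0.72 (limma, adjusted p = 0.0066). Marco, a scavenger receptor, was lower by -3.04 ± 0.60. Of 15 genes of MHC class I peptide processing, 5 were higher and 0 lower, among them the tapasin gene Tapbp at 0.97 ± 0.19. That count was 2 without knockout array 3 or without 6 h wild-type array 2, and 3 without 6 h wild-type array 1. Of 11 MHC class II genes, 4 were lower and 0 higher, among them the class II activator Ciita at -1.05 ± 0.22 and H2-Ab1 at -0.61 ± 0.13. The class II count was 2 without knockout array 2 or 3 or without 6 h wild-type array 1 or 3. The LPS receptor gene Tlr4 was 0.88 ± 0.11 higher in the unstimulated knockout than in the 6 h wild type, and its co-receptor Cd14 -0.79 ± 0.25 lower without a call (adjusted p = 0.068 in limma). Bcl2l11 (BIM), which starts mitochondrial cell death, was 2.13 ± 0.18 higher (limma, adjusted p = 2.0e-06).

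The labelled cell type was checked against its markers. Itgax (CD11c), the surface marker of dendritic cells, read 10.57, 10.72 and 10.77 in the knockout and 11.14, 11.22 and 11.17 at 6 h, a difference of -0.49 ± 0.08 (limma, adjusted p = 0.00087). Of 12 conventional dendritic cell markers, 2 were called lower and 1 higher. The lower count was 1 without knockout array 3 or without 6 h wild-type array 1 or 2, and the higher count was 0 without knockout array 1 or 3 or without any 1 of the 6 h wild-type arrays. Of 13 macrophage markers, 2 were higher and 1 lower, and their mean was 8.20, 8.47 and 9.18 in knockout arrays 1, 2 and 3 against 8.20 to 8.23 in the 6 h wild type. Of 6 monocyte markers 0 were called, and their mean was 7.27 to 7.64 in the knockout and 6.82 to 7.51 in the 6 h wild type. Of 14 neutrophil and granule markers, Mmp8 was called higher (0.51 ± 0.11) and Camp lower (-1.07 ± 0.27), and 0 were lower without knockout array 3 or without 6 h wild-type array 1 or 2. Of 6 erythroid markers, Tspan33 was called lower (-0.87 ± 0.17). Among markers of stroma, mast cells, B cells and T or NK cells, 0 were called, except that 1 stromal marker was called higher without 6 h wild-type array 1. Over the arrays of the 3 groups the means of these lists ran, in that order, from 5.28 to 5.68, 3.83 to 4.16, 4.68 to 4.93 and 3.82 to 4.02. The part of these markers in the results was not tested, and in bulk RNA fewer cells of a type and less RNA per cell cannot be told apart.

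**Figure D5:**
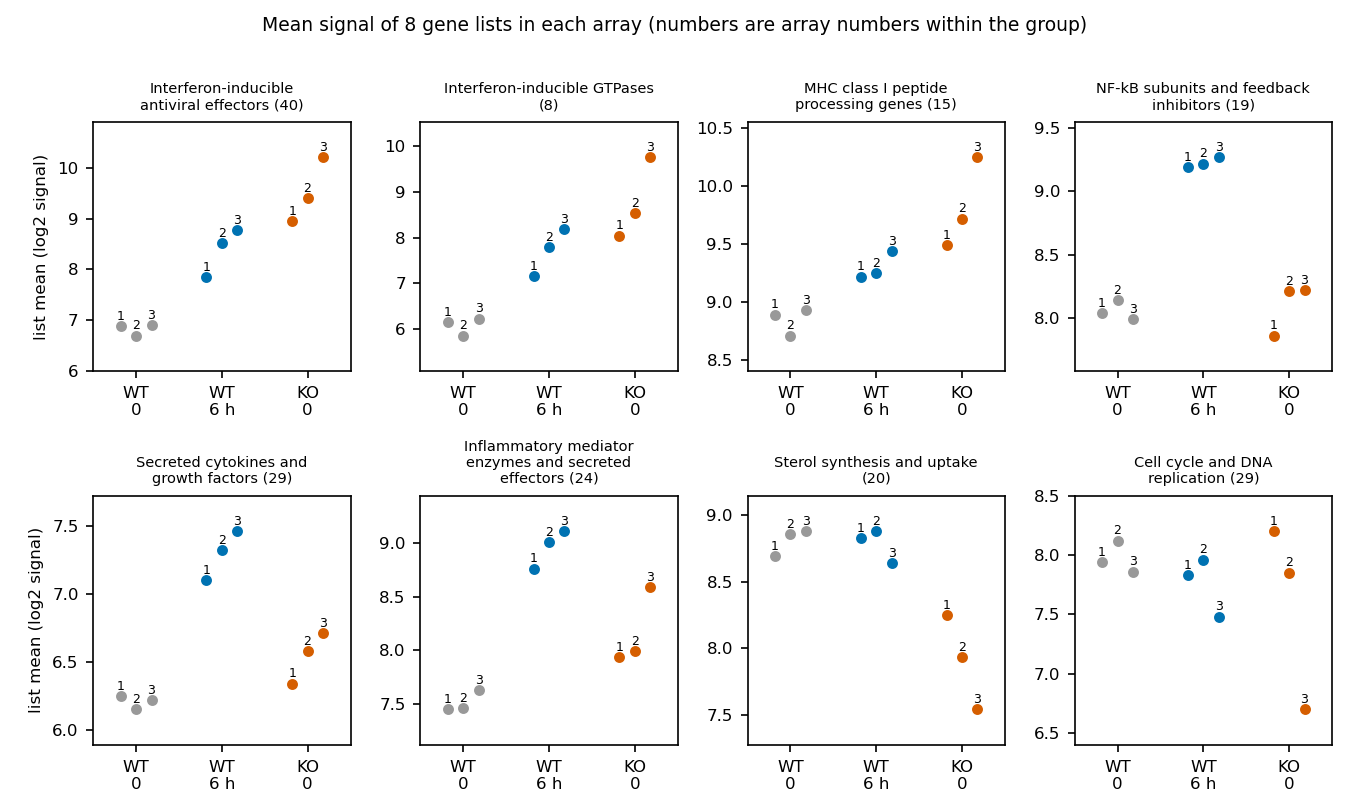
Mean log2 signal of the members of 8 gene lists in each array of unstimulated wild type (WT 0, grey), wild type at 6 h LPS (WT 6 h, blue) and unstimulated knockout (KO 0, orange), with the array number beside each point and an own vertical axis in each panel. The knockout arrays spread more than the wild-type arrays in the interferon and cell cycle panels, where array 3 is highest and lowest, and stay near the unstimulated wild type in the NF-kB panel.

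The knockout arrays differed among themselves. Pairs of knockout arrays correlated at 0.983 to 0.994 across genes, which are not independent replicates, pairs of 6 h wild-type arrays at 0.992 to 0.996, and knockout with 6 h wild-type arrays at 0.975 to 0.985. Knockout array 3 was highest and array 1 lowest in the interferon lists. The mean of 29 cell cycle genes ran the other way, at 8.20, 7.85 and 6.70 in knockout arrays 1, 2 and 3 against 7.48 to 7.96 in the 6 h wild type, and its part in the results was not tested. Within the knockout group the NF-kB and sterol lists stayed on the same side of the 6 h wild type in all 3 arrays. The targeted gene was not analysed here, so the labels of the knockout were not checked on it.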

How the data were processed

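Total RNA (200 ng per array) was hybridised to 18 arrays, 3 for each of 6 groups. Per the submitters' processing notes the authors ran RMA, and the deposited values are log2 signals per probe set. The log base is not stated, and the values were taken as log2 from their range. They were used as deposited. RMA makes the arrays' distributions alike, so a change shared by most genes would not show.

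Of 35556 probe sets, the platform annotation names 1 gene for 21789, several for 1621, and does not list 12146. The probe set with the highest mean was kept for each of 19938 genes (999 had several). RefSeq's GRCm38.p6 tables gave names and promoters, not probe positions.

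limma 3.58.1 in R 4.3.3 fitted 6 group means on all arrays (12 residual degrees of freedom). Tests were 2-sided and adjusted by Benjamini-Hochberg over all genes. The arrays' number and spread set the precision. The p-values measure the spread between cultures only if the replicates are separate cultures, as the design calls them. The fit was tested on simulated data.

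The text names the 10 largest differences each way whose groups lie apart, the 6 largest wild-type changes of each class, up to 4 called and 3 matched members of each list (the 2 largest differences where none was called), Ifnb1, Tlr4, Cd14, and members of the lists for interferon signalling, ISG15, cytokines, chemokines, maturation and sterols. Predicted or unnamed genes were left out when the largest differences and the largest wild-type changes were picked. The comparison, the 42 gene lists and the genes shown in figures were chosen with earlier results of these data known. Same-numbered arrays of wild type at 6 h and unstimulated had correlated deviations from their group means over genes (r = 0.44, 0.15 and 0.29). Same-numbered arrays of knockout and 6 h wild type gave 0.27, 0.08 and 0.28, and those of knockout and wild type, both unstimulated, 0.08, 0.06 and 0.02. Differently numbered arrays gave -0.32 to 0.1 in the first pairing and -0.28 to 0 in the second. Deviations from a group mean cancel within the group, so these values must offset the same-numbered ones and are no separate evidence. Whether the replicate number pairs the 2 genotypes is therefore not settled, and the main fit used no replicate block.

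Alternatives were another set of arrays, array weights, median centring, a filter on low signal, the mean of probe sets, another variance prior, replicate blocks, other margins and leaving out each of 9 arrays.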

Additional observations from a re-analysis of the deposited data

How the results depend on the processing

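The comparison called 1783 genes. It called 3092 with array weights, 460 when a 2-fold difference was also required, and 1112 to 1969 with 1 array left out, the lowest without 6 h wild-type array 2. The programme called 1614 genes, and 901 to 1635 with 1 array left out (901 without 6 h wild-type array 2, 986 without array 3). The knockout state called 487 genes, 289 with only the 3 groups compared and 274 to 459 with 1 array left out. The early programme called 60 genes, and 40 to 68 with 1 array left out.

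Of all 844 risers, 13 lay above the 6 h wild type, 277 matched it and 492 were lacking. The 13 became 23 with array weights, 22 with genes above the low-signal level, and 6 to 23 with 1 array left out. The 277 became 167 with only the 3 groups, 159 with a 1.5-fold margin, 34 for rises of at least 2-fold, and 119 to 329 with 1 array left out. The 492 became 158 for rises of at least 2-fold and 305 to 447 with 1 array left out. The 12 risers of at least 2-fold above the wild type ranged from 6 to 21, the 34 matched from 16 to 41 and the 158 lacking from 137 to 169.

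With the replicate number within genotype as a random block (correlation 0.27), the programme called 2524 genes, the early programme 120, risers above 29, matched 539, and 2-fold risers above 19. With it as fixed blocks within genotype, the programme called 3002 genes, of which 29 risers lay above and 638 matched. A fixed replicate block across genotypes gave 46 risers above, 28 of at least 2-fold, and 924 genes of the knockout state. It called 2404 genes in the main comparison, and whether its numbers pair the genotypes is not settled. The cause of these moves was not tested. No result was reversed under the alternatives run. No detection calls came with the values, so whether a low signal lies above background is unknown. Examples are Il6 and Lcn2 in unstimulated cells, Ifnb1 in the unstimulated wild type, and Sema6a and Slfn4 in both wild-type groups.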
